A study of Mus musculus with 2 samples.

Results

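The proteasome is the large protease that degrades proteins tagged with ubiquitin, and 50 protein-coding genes for its subunits, activators and assembly factors were described in G1E cells. The members were the genes whose symbol starts with Psm, a letter from a to g and a digit, and they were 50 of the 21474 protein-coding genes and of the 43346 annotated genes in the tables. They were divided by role into 14 constitutive core subunits, 3 immunoproteasome subunits, 2 tissue forms of core subunits, 6 ATPases and 3 other subunits of the base, 8 subunits of the lid, 6 activators and inhibitors, 4 chaperones of core assembly and 3 chaperones of base assembly. The remaining gene, Psmc3ip, was selected by its symbol only, since it encodes a partner of meiotic recombination proteins and no proteasome subunit.

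G1E is an immortalized line of mouse erythroid progenitors, male and of postnatal stage with an age of 0 day per the labels, which also call it Gata1-. Gata1 encodes the transcription factor that drives red cell maturation. Its RNA was counted at 88.2 and 61.4 TPM in replicates 1 and 2, but a gene total does not show whether the altered part of the gene was transcribed, so it does not check this label. Poly(A) RNA was sequenced as single-end reads in 2 libraries, which the labels number as biological replicates 1 and 2 and assign to 1 biosample. These form 1 group of cells of 1 line, with no treatment named and no second condition, so no condition was compared and no p-value is given. The labels do not say whether separate cultures were used, and the spread between replicates may therefore be purely technical.

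In the core particle, rings of alpha subunits gate the entry and rings of beta subunits hold the proteolytic sites, which cut after acidic (Psmb6), basic (Psmb7) and hydrophobic (Psmb5) residues. The regulatory particle sits on the end of the core: its lid removes ubiquitin and its base, driven by ATPases, unfolds the substrate and threads it inside. In cells exposed to interferon gamma, and in many immune cells without it, the catalytic subunits are replaced by Psmb9, Psmb10 and Psmb8, which changes the peptides offered on class I molecules, and maturing red cell precursors use the system to clear proteins as they are remodelled.

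The libraries held 31645051 and 56983558 estimated counts in replicates 1 and 2, of which the 50 genes took 168593 (0.533%) and 388283 (0.681%). Reads were 36 nt long in replicate 1 and 55 nt in replicate 2, as the effective lengths in the tables imply. Levels are given in TPM, a count divided by gene length and scaled to the library, so that levels of different genes can be compared. All 8 erythroid progenitor markers examined were expressed in both libraries at the threshold of 1 TPM used here, with medians of 187.5 and 139.3 TPM, among them 626 and 326 TPM for Gata2 and 184 and 141 TPM for Klf1 in replicates 1 and 2. Of the markers of other cells, 0 of 5 lymphoid, 1 of 5 granulocyte and monocyte, 1 of 3 dendritic, 0 of 3 fibroblast, 0 of 3 testis germ cell and 0 of 3 thymic epithelial genes reached that level in both, the 2 exceptions being Lyz2 (3.20 and 15.7 TPM) and Cd74 (2.03 and 1.21 TPM).

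RNA of nearly the whole proteasome was detected. At least 1 TPM in both libraries was reached by 47 of the 50 genes, or 94%, against 42.5% of all protein-coding genes. The genes below this level were Psmb8, an immunoproteasome subunit, Psmb11, a subunit known from thymic epithelium, and Psma8, a subunit known from testis. In replicate 1 the median was 71.3 TPM over members and 0.55 TPM over all protein-coding genes, and in replicate 2 it was 126 and 0.12 TPM. Together the members held 0.748% and 0.945% of the TPM of all protein-coding genes in replicates 1 and 2.

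On the log2(TPM + 1) scale, with the mean taken over the libraries, the median member level was 6.63, beside 0.42 over all protein-coding genes. Other lists of genes for multi-subunit machines bracketed it. The median was 10.12 over 86 cytoplasmic ribosomal protein genes, 8.08 over 7 subunits of the CCT chaperonin, which folds actin and tubulin, and 6.07 over 77 mitochondrial ribosomal protein genes. Among the expressed genes of each list the SD of this level was 1.56 over proteasome genes, 1.79 over cytoplasmic ribosomal protein genes, 0.31 over CCT subunits and 1.07 over mitochondrial ribosomal protein genes.

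**Figure D1:**
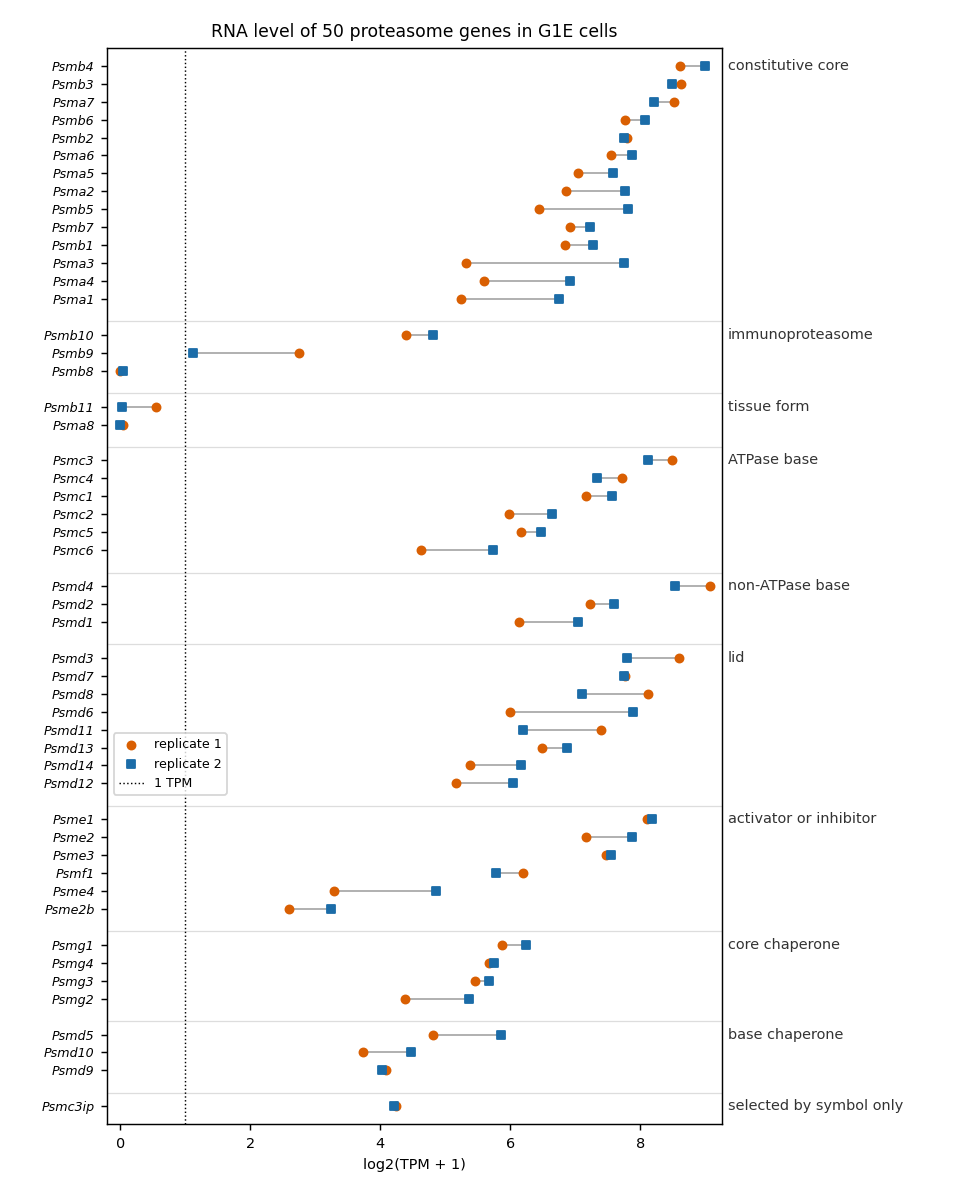
RNA level of the 50 proteasome genes, as log2(TPM + 1), in replicate 1 (circles) and replicate 2 (squares) of G1E cells, grouped by role, with a grey line between the 2 values of a gene and a dotted line at 1 TPM. Constitutive subunits of the core, base and lid lie far to the right, and Psmb8, Psmb11 and Psma8 lie at the left edge.

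All 14 constitutive core subunits were expressed, with medians of 126 and 216 TPM in replicates 1 and 2. Psmb4, a structural subunit of the beta ring, stood highest by its mean level, at 389.9 and 511 TPM, although Psmb3 was above it in replicate 1. Psma1, of the alpha ring, stood lowest at 36.8 and 107 TPM. The highest subunit of each library exceeded the lowest 10.7-fold in replicate 1 (Psmb3 over Psma1) and 4.78-fold in replicate 2 (Psmb4 over Psma1), although each subunit occupies the same number of places in the particle. The SD of log2(TPM + 1) over the 14 genes was 1.15 in replicate 1 and 0.60 in replicate 2.

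The genes that followed Psmb4 in the order of mean level were the structural subunit Psmb3 with 395 and 357 TPM in replicates 1 and 2, and Psma7 with 368 and 297 TPM. The catalytic subunit Psmb6 came next with 217 and 268 TPM. Psmb2 had 221 and 214 TPM, and the TPM of these 4 genes differed by at most 1.24-fold between the libraries.

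The middle of the order was held by Psma6 (186 and 233 TPM in replicates 1 and 2), Psma5 (132 and 191 TPM) and Psma2 (115 and 217 TPM). The catalytic subunits Psmb5 and Psmb7 followed, Psmb5 with 85.8 and 223 TPM and Psmb7 with 120.1 and 149 TPM. Psmb5 and Psmb7 therefore changed places between the libraries. Psmb1, a structural beta subunit, had 113 and 153 TPM.

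The lowest places belonged to alpha subunits, which form the outer rings and the gate. Psma3 had 39 and 213 TPM in replicates 1 and 2, Psma4 had 47.4 and 120.4 TPM, and Psma1 was given above. All of these were lower in replicate 1, and Psma3 was 5.47-fold apart in TPM. Summed over the ring, the 7 beta subunits reached 1542 and 1876 TPM, and the 7 alpha subunits 923.6 and 1378 TPM.

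Differences between genes were set beside a bound of 1.07 on the log2 scale, a 95% half-width for a mean of 2 libraries by normal theory, from the SD between the libraries of 0.55 pooled over the 9118 expressed protein-coding genes. None of the 13 steps between neighbours in the order of the core exceeded this bound, and 36 of the 91 pairs of core genes did. The ends of the order thus differ by more than the spread between libraries, and neighbours in it do not. Across the 14 genes, which share their libraries and are not independent replicates, Spearman's rho between the libraries was 0.80.

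The immunoproteasome subunits differed among themselves, with both steps in their order beyond the bound. Psmb10 (ENSMUSG00000031897.8, chromosome 8, 105935735 to 105938444, minus strand of GRCm38), the immuno form of Psmb7, had 19.97 and 27.02 TPM in replicates 1 and 2, from 576 and 1490 counts, with a mean of 23.5 ± 4.99 TPM (SD, n = 2). Psmb9, the immuno form of Psmb6, had 5.73 and 1.18 TPM, from 118 and 60 counts. Psmb8, the immuno form of Psmb5, had 0 counts in replicate 1 and 1 count in replicate 2, or 0 and 0.03 TPM.

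Psmb10 was thus clearly detected in both libraries, Psmb9 was near the level of 1 TPM in replicate 2 and above it in replicate 1, and Psmb8 was at the limit of detection. A count of 0 allows up to 3 counts, which for Psmb8 in replicate 1 corresponds to 0.0908 TPM; such limits cover counting error only. For Psmb9 the credibility intervals deposited by the authors, whose level the tables do not state, ran from 4.59 to 7.30 TPM in replicate 1 and from 0.979 to 1.93 TPM in replicate 2 and did not overlap.

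Each immuno form was lower than its constitutive counterpart in both libraries. As a difference of log2(TPM + 1), Psmb8 minus Psmb5 was -7.10 ± 0.94, Psmb9 minus Psmb6 was -5.98 ± 1.37 and Psmb10 minus Psmb7 was -2.47 ± 0.08 (SD, n = 2), all beyond the bound of 1.07. Psmb10 made up 14.3% of the TPM of its pair in replicate 1 and 15.4% in replicate 2, close to the same share in both. Psmb9 made up 2.57% and 0.438% of its pair. For Psmb8 the limit of 3 counts was 0.106% of the pair in replicate 1, or 945-fold below Psmb5. The deposited credibility interval of Psmb8 reached 0.227 TPM there, above the 0.0908 TPM of that limit. The value of 945-fold is therefore not a firm lower bound.

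**Figure D2:**
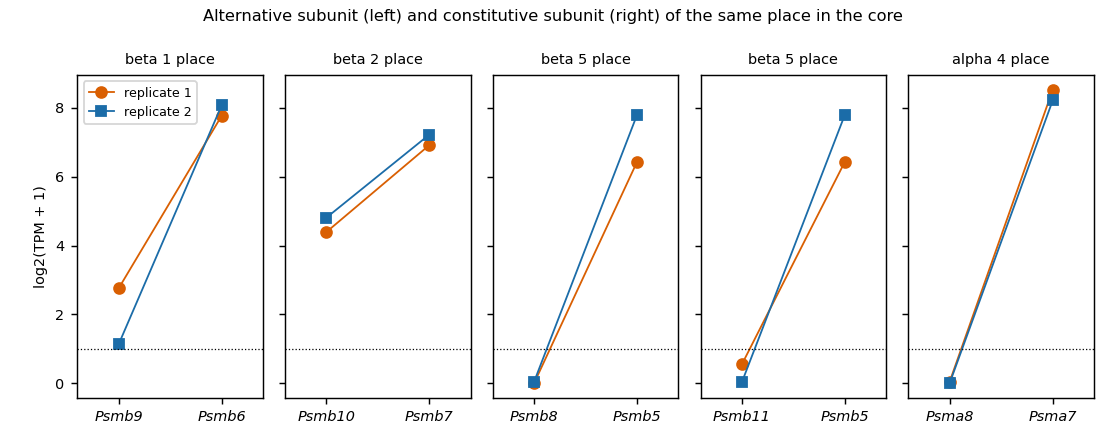
Level, as log2(TPM + 1), of each alternative core subunit (left in each panel) and the constitutive subunit of the same place (right), with a line per library (circles, replicate 1; squares, replicate 2) and a dotted line at 1 TPM. In all 5 panels both libraries place the alternative subunit below the constitutive one, and the step is smallest for Psmb10 against Psmb7.

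The promoters of the immuno and the constitutive subunit are shown for Psmb8 with Psmb5 and for Psmb9 with Psmb6, since these pairs stood furthest apart in level. Each is the 250 bases before the RefSeq start of the gene (assembly GRCm38.p6), read 5′ to 3′ on the strand of the gene, with matches to any of 9 motifs in capitals. Psmb8 lies at chr17:34197945-34198194 on the plus strand, Psmb5 at chr14:54617996-54618245 on the minus strand, Psmb9 at chr17:34187331-34187580 on the minus strand and Psmb6 at chr11:70525107-70525356 on the plus strand. The windows of Psmb8 and Psmb9 lie inside the genes as GENCODE annotates them, with gene starts further upstream. The window of Psmb5 runs across its annotated gene start and that of Psmb6 lies before its own, so the windows compared are not alike in position.
Psmb8: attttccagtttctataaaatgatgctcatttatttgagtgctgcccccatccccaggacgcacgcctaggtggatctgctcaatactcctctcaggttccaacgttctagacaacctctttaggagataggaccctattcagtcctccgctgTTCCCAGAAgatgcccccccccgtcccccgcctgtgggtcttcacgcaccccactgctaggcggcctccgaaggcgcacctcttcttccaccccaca
Psmb5: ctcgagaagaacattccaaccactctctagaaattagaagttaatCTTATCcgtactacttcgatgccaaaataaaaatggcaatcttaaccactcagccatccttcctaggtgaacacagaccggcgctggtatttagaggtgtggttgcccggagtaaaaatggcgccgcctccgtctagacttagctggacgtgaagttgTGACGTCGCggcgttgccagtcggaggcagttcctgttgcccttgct
Psmb9: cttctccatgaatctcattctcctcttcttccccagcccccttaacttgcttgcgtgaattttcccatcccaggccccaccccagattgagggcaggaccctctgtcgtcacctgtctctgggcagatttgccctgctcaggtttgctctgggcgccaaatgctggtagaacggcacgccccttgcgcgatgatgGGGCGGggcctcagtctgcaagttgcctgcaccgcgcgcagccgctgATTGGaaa
Psmb6: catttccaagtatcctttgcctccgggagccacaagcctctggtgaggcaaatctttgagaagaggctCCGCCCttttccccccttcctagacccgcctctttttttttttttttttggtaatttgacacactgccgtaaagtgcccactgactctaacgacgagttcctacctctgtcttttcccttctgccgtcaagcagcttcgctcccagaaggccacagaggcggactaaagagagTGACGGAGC
The capitals in Psmb8 are TTCCCAGAA, a match to the STAT motif TTCNNNGAA 97 bases before the start. Those in Psmb5 are TGACGTCGC, a match 47 bases before the start to TGACNNNGC, the core of the antioxidant response element that NRF1 and NRF2 bind, and CTTATC, the reverse complement of the GATA motif GATAAG, 205 bases before it. Psmb9 holds the SP1 motif GGGCGG 55 bases and the NF-Y box CCAAT, read as ATTGG, 8 bases before the start. Psmb6 holds the antioxidant response core as TGACGGAGC 9 bases and the SP1 motif, read as CCGCCC, 182 bases before the start. A match describes the letters only.

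In these 4 promoters the constitutive subunits both carried the antioxidant response core and the immuno subunits did not. Over the family its share was close to that of all genes: 5 of the 42 genes with a promoter in the RefSeq table held it, Psmb5, Psmb6, Psmc6, Psmd12 and Psmd9, or 11.9%, against 11.5% of all 27025 genes and 14.1% of 7291 expressed protein-coding genes. The STAT motif stood in Psmb8 and Psmg1 only, or 4.76% of the 42 genes, against 8.13% of all and 6.82% of expressed genes. Both strands were searched and motifs could overlap.

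Of the other motifs, the ETS motif CCGGAAG was found in 13 of 42 proteasome promoters, or 31.0%, against 7.83% of all genes and 19.0% of expressed genes. Its members came from the core (Psma6), the base (Psmc1, Psmc2, Psmc6, Psmd2, Psmd4), the lid (Psmd6, Psmd11, Psmd12), the activators (Psme3, Psme4) and the chaperones (Psmg1), with Psmc3ip. The SP1 motif was in 52.4% of proteasome promoters, 35.4% of all and 66.8% of expressed genes, and the CCAAT box in 35.7%, 37.5% and 41.9%. The GATA motif stood in Psmb5, Psme2 and Psmf1, or 7.14%, against 7.60% of all and 5.66% of expressed genes.

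The E-box CACGTG was in 9.52% of proteasome promoters, against 6.86% of all and 10.6% of expressed genes. The nuclear respiratory factor motif GCATGCGC was in 4.76%, or 2 of 42, against 2.56% and 5.98%. The YY1 motif AAGATGGC was in 0 of 42, against 1.83% and 2.83%. Each of these member shares lay below that of expressed genes. These shares are descriptions with no test. Psma8, Psmb1, Psmb2, Psmb7, Psmc3, Psmd3, Psmd7 and Psmg2 had no entry in the promoter table.

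**Figure D3:**
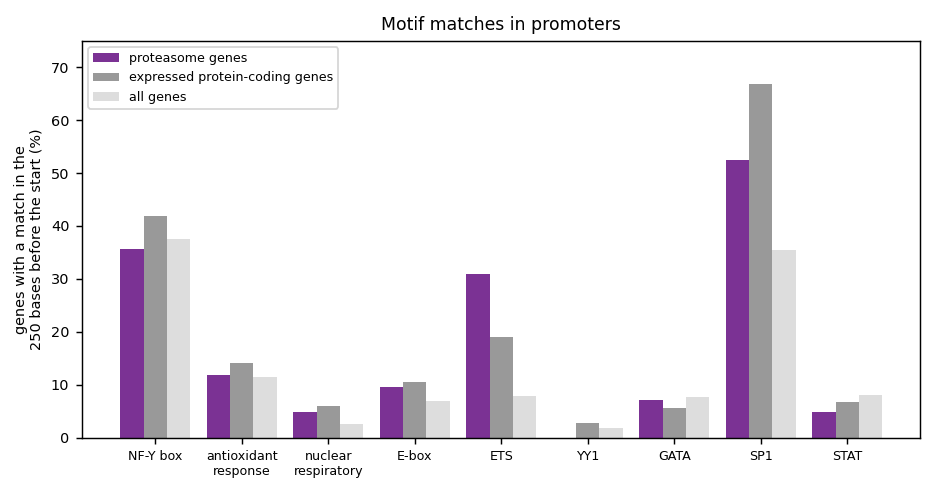
Share of genes, in percent, with a match to each of 9 motifs in the 250 bases before the start, for 42 proteasome genes (purple), 7291 expressed protein-coding genes (dark grey) and all 27025 genes of the table (light grey). The ETS motif is the one where the proteasome bar (31.0%) stands above both grey bars by the widest margin.

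Psmb9 and Psmb8 lie in the class II region of the major histocompatibility complex on chromosome 17, interleaved with Tap1 and Tap2, the genes of the peptide transporter that loads class I molecules. On assembly GRCm38, Psmb8 (ENSMUSG00000024338.10) spans 34197721 to 34201454 on the plus strand. Psmb9 (ENSMUSG00000096727.1, minus strand, 34181987 to 34187764) overlaps at its start 212 bases of Tap1 (plus strand, 34187553 to 34197225). Tap1 had 12.2 and 4.77 TPM in replicates 1 and 2, and Tap2, its partner further along the chromosome, 23.8 and 20.4 TPM. In scaled counts Psmb9 was 3.67-fold higher in replicate 1 than in replicate 2. The use of strand in counting is not given in the sources used here, so reads in the overlap may not have been told apart.

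Markers of other blood cells were also unequal between the libraries. The summed TPM was 2.75 in replicate 1 and 0.19 in replicate 2 for the 5 lymphoid markers, 3.01 and 1.23 for the 3 dendritic markers and 3.78 and 15.9 for the 5 granulocyte and monocyte markers, most of the last being Lyz2. Cd3e had 1.68 and 0.02 TPM in replicates 1 and 2, Elane was at 0 in both, and Flt3 had 0.93 and 0.01 TPM. Summed markers of other tissues were also higher in replicate 1 than in replicate 2. They had 1.07 and 0.04 TPM for fibroblast, 0.24 and 0.04 for testis germ cell and 0.51 and 0.01 for thymic epithelium. The median over all protein-coding genes was 0.55 and 0.12 TPM. Of these lists of other blood cells and other tissues, only the granulocyte and monocyte sum was higher in replicate 2. The part of other blood cells in the level of Psmb9 was not tested. In bulk RNA, fewer cells that express a gene and less RNA per cell cannot be told apart.

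Of 10 interferon regulators and peptide-loading genes, which drive or accompany the immunoproteasome, 7 reached 1 TPM in both libraries. B2m, the light chain of class I molecules, had 303 and 289.7 TPM in replicates 1 and 2. Nlrc5, the activator of class I genes, had 0.55 and 0.26 TPM, and Irf8, a regulator of myeloid and dendritic cells, had 0.35 and 0.01 TPM. Irf1, which mediates induction of Psmb9 and Tap1 by interferon and was named after its values were seen, had 2.08 and 0.99 TPM.

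The tissue forms of core subunits were at or near 0. Psma8, which replaces Psma7 in male germ cells, had 1 count in replicate 1 and 0 in replicate 2 (0.03 and 0 TPM), against 368 and 297 TPM for Psma7. Psmb11, which replaces Psmb5 in thymic cortical epithelium, had 45 and 4 counts (0.46 and 0.02 TPM), against 85.8 and 223 TPM for Psmb5. The differences of log2(TPM + 1) were -8.35 ± 0.19 for Psma8 minus Psma7 and -6.84 ± 1.33 for Psmb11 minus Psmb5 (SD, n = 2), beyond the bound.

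The level of Psmb11 in replicate 1 was set beside other genes with few or no counts in replicate 2. Among 6941 protein-coding genes of at least 1000 nt with at most 4 counts in replicate 2, the median in replicate 1 was 0.07 TPM, and 9.32% stood at or above the 0.46 TPM of Psmb11. The thymic epithelium markers Foxn1, Krt5 and Epcam summed to 0.51 and 0.01 TPM in replicates 1 and 2, and the part of such cells in the value was not tested.

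The 6 ATPases form a ring that unfolds the substrate, each present once in it, and all were expressed. Psmc3 stood highest with 357 and 277 TPM in replicates 1 and 2. Psmc4 had 211 and 161 TPM and Psmc1 142 and 188 TPM. Psmc2 (62.2 and 99.4 TPM) and Psmc5 (70.5 and 87.6 TPM) lay lower. Psmc6 was the lowest with 23.8 and 52.1 TPM, so the ring spanned 15.0-fold in replicate 1 and 5.33-fold in replicate 2. Of 5 steps in this order 1 exceeded the bound, and of 15 pairs 9 did.

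The other subunits of the base bind ubiquitin or the shuttle proteins that carry it. Psmd4, a ubiquitin receptor, had 538 and 368 TPM in replicates 1 and 2, the highest gene total of any member in replicate 1. With protein-coding transcripts only, it had 254 TPM in replicate 1, below Psmb3 with 388 TPM. Psmd2, the docking site of shuttle proteins, had 149 and 194 TPM, and Psmd1, a scaffold subunit, 69.5 and 131 TPM. In both libraries the order was Psmd4, Psmd2, Psmd1.

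In the lid, Psmd14 is the enzyme that cuts ubiquitin off the substrate and Psmd7 its partner. Psmd14 had 40.6 and 70.8 TPM in replicates 1 and 2, against 218 and 213 TPM for Psmd7. The partner was thus the higher of the pair in both libraries, with no overlap between their values. The remaining lid subunits are scaffold proteins: Psmd3 had 386 and 222 TPM, and Psmd8 276 and 137 TPM. Psmd11 (167 and 72.3 TPM) was higher in replicate 1, and Psmd6 (62.9 and 237 TPM) higher in replicate 2. Psmd13 had 88.4 and 116 TPM and Psmd12, the lowest, 34.7 and 65.1 TPM. None of the 7 steps between neighbours in the lid exceeded the bound, and 13 of 28 pairs did.

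Activators open the core without the regulatory particle, mostly for peptides. Psme1 and Psme2 form the interferon-inducible cap, and both were abundant, Psme1 with 273 and 289 TPM in replicates 1 and 2 and Psme2 with 143 and 233 TPM. Their difference, 0.62 ± 0.44 on the log2 scale (SD, n = 2), was within the bound, and with protein-coding transcripts only it turned to -0.19. Psme3, the nuclear relative that forms a cap of its own, had 177 and 186 TPM. Psme4, the large activator known from nuclei and testis, had 8.82 and 27.9 TPM. Psme3 minus Psme4 was 3.43 ± 1.05 (SD, n = 2), beyond the bound. Of the 5 steps in the order of the 6 activators and inhibitors, 3 exceeded it.

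Psmf1, an inhibitor of the core in vitro, had 72.1 and 54.2 TPM in replicates 1 and 2. Psme2b, a gene that shares 75.8% of its 36-mers with other genes, mainly Psme2, had 5.07 and 8.46 TPM. These values depend on how reads were divided between the copies.

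The chaperones that assemble the particle but leave it had lower median levels than the core subunits. For the core they are Psmg1 and Psmg2, which pair up on the alpha ring, and Psmg3 and Psmg4, which pair up likewise. Psmg1 had 57.7 and 74.5 TPM in replicates 1 and 2 and Psmg2 19.9 and 40.4 TPM. Psmg3 had 42.9 and 50.1 TPM and Psmg4 50.2 and 52.8 TPM, with a difference within the bound. By gene total Psmg1 was above Psmg2 in both libraries, the only one of the 6 pairs of these genes beyond the bound. With protein-coding transcripts only, Psmg1 had 21.6 and 39.1 TPM in replicates 1 and 2, against 19.9 and 40.4 TPM for Psmg2. The order of this pair then differed between the libraries.

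The chaperones of the base bind the ATPases before the base joins the core. Psmd5 had 27.1 and 56.8 TPM in replicates 1 and 2, Psmd10, also known as gankyrin, 12.3 and 21.2 TPM, and Psmd9 15.98 and 15.3 TPM. In replicate 1 Psmd9 was above Psmd10, and in replicate 2 it was below. Psmc3ip, selected by symbol only, had 18.01 and 17.5 TPM.

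Relative to the constitutive core, as a difference of class medians of log2(TPM + 1) with the SD over 2 libraries, the base chaperones stood at -3.09 ± 0.28 and the core chaperones at -1.73 ± 0.44. The ATPases stood at -0.55 ± 0.31, the other base subunits at 0.04 ± 0.28, the lid at -0.41 ± 0.51 and the activators and inhibitor at -0.70 ± 0.56. The immuno subunits stood at -5.43 ± 1.70 and the tissue forms at -7.22 ± 0.74. Of these classes, the chaperones, immuno subunits and tissue forms thus lay furthest below the core in both libraries. The nearest of them were the core chaperones, at -1.42 and -2.05 in replicates 1 and 2. The ATPases, the lid and the activators and inhibitor also lay below the core in both. The other base subunits lay above it in replicate 1 (0.24) and below it in replicate 2 (-0.15). Each SD rests on 2 values and does not measure how well the classes are separated.

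The libraries disagreed on a part of the family, by a share near that of all genes. In either direction 23.4% of the members tested were 2-fold or more apart, against 25.4% of all protein-coding genes tested. In counts scaled by TMM library sizes, 10 of the 47 genes with at least 50 counts, or 21.3%, were 2-fold or more higher in replicate 2, against 14.1% of all 10467 protein-coding genes tested. In the other direction 1 gene, Psmb9, or 2.13%, was 2-fold or more higher in replicate 1, against 11.3%. The 10 genes higher in replicate 2 were Psme4 (4.05-fold), Psmd6 (3.89-fold), Psma3 (3.19-fold), Psma1 (2.94-fold), Psmb5 (2.63-fold), Psma4 (2.55-fold), Psmd14 (2.54-fold), Psmc6 (2.24-fold), Psmd5 (2.21-fold) and Psmg2 (2.07-fold). They came from the core, the lid, the base, the activators and both kinds of chaperone. The median log2 ratio, replicate 2 over replicate 1, was 0.44 over the members and 0.01 over all protein-coding genes tested.

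GC content moved with this ratio. All of the 10 but Psmb5 (57% GC) had a GC content between 40.8% (Psmd14) and 46.96% (Psmd6). The median log2 ratio was 1.05 over the 8 members under 45% GC, 0.80 over 16 members from 45% to 50% and 0.00 over 23 members at 50% or more, beside 0.81, 0.11 and -0.29 over all protein-coding genes in the same classes. Spearman's rho between GC content and the ratio was -0.64 over the 47 members and -0.48 over all tested genes, across genes that share both libraries.

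With the trend on GC content subtracted, 5 of 47 members, or 10.6%, remained 2-fold or more higher in replicate 2, against 6.87% of all protein-coding genes tested, with log2 ratios of 1.76 for Psmd6, 1.72 for Psmb5, 1.18 for Psma1, 1.11 for Psme4 and 1.08 for Psma4, and Psmb9 (-1.60), or 2.13% of members, remained higher in replicate 1, against 10.7% of all. The median over members was then 0.29, against -0.03 over all.

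**Figure D4:**
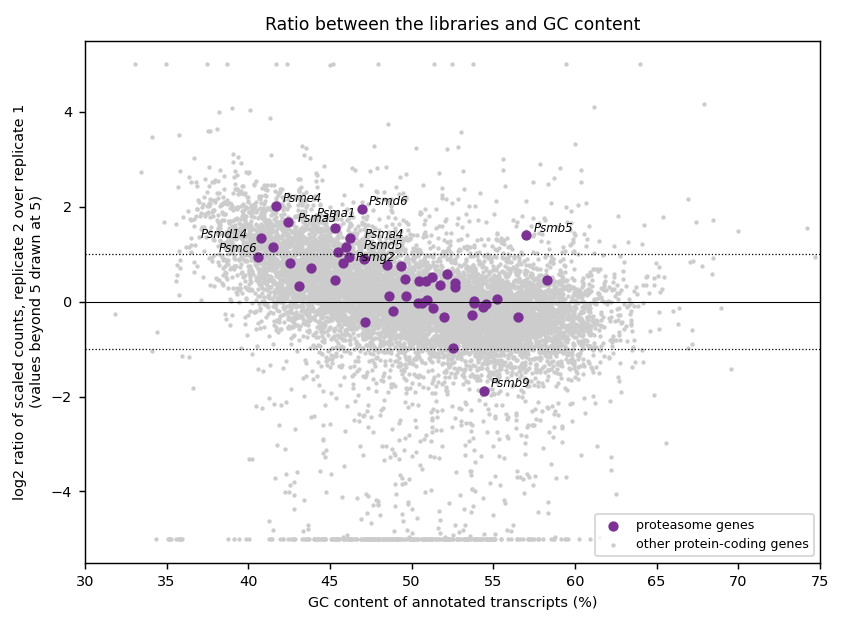
Log2 ratio of scaled counts, replicate 2 over replicate 1, against the GC content of a gene's annotated transcripts in percent, for 47 proteasome genes (purple) and other protein-coding genes (grey), with dotted lines at a 2-fold ratio and the 11 members beyond them named. The members follow the downward trend of the other genes, with Psmb5 and Psmd6 above it and Psmb9 below it.

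Sequence shared with copies touches several of these values. Of its 36-mers, Psmb5 shared 67.7% with other genes, mainly processed pseudogenes, Psma5 55.7%, Psme2 32.1%, Psmd2 27.1%, Psmc1 26.9%, Psmb3 20.8% and Psma3 17.6%. The pseudogene Gm13835, which shares sequence with Psma3, held 97 counts in replicate 1 and 1759 in replicate 2, beside 1327 and 7933 for Psma3. Psmb5-ps, a pseudogene that shares 6.8% of the 36-mers of Psmb5, held 48.6 and 2 counts. The pseudogene Gm3375, which shares 56.0% of them, had no entry among the quantified features. Levels of these members are uncertain by the reads that could not be placed. Exons of 12 members also overlap exons on the opposite strand, over more than 10% of their length for 5: Psmd9, Psmc3ip, Psmb8, Psmb7 and Psmd13.

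Transcript tables show which form of each gene the reads were assigned to. Of the 47 expressed genes, 9 have 1 transcript in the tables and 38 have several. The libraries named the same leading transcript in 30 of these 38 genes and different ones in 8: Psma3, Psma6, Psmc3, Psmc3ip, Psmd13, Psmd14, Psme2 and Psmg1. Where the leading transcript held at least 60% of the gene's TPM in each library, in 22 genes, the libraries named the same one in all 22. In 20 of the 38 genes protein-coding transcripts held at least 90% of the TPM in both libraries, among them Psma1, Psma7, Psmb6, Psmd2 and Psmd6.

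In 3 genes a transcript not annotated as protein-coding led in both libraries. A 387 nt transcript of Psma5, annotated as subject to nonsense-mediated decay, took 64.6% of the gene's TPM in replicate 1 and 51.9% in replicate 2. A 314 nt processed transcript of Psmd4 took 51.9% and 35.6%, and a 439 nt decay transcript of Psme1 took 51.0% and 64.6%. By this assignment of short reads, a large part of the gene levels of Psma5, Psmd4 and Psme1 went to short forms not annotated as protein-coding. Protein-coding transcripts held 47.2% and 62.7% of Psmd4, or 254 and 231 TPM in replicates 1 and 2. For Psme1 they held 42.0% and 31.9%, or 115 and 92.2 TPM. For Psma5 they held 35.4% and 48.1%, or 46.5 and 91.8 TPM. The place of Psma5 in the middle of the core order rests on its gene totals of 132 and 191 TPM.

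Short forms also differed between the libraries. A 520 nt processed transcript of Psma6 held 56.0% of the gene in replicate 1 and 0.18% in replicate 2, and a 560 nt one of Psmd14 held 48.8% and 3.45%. Psmd11 was higher in replicate 1 as a gene (167 and 72.3 TPM in replicates 1 and 2), while its protein-coding transcripts summed to 70.8 and 69.6 TPM. For Psmg1 the leader in replicate 1 was a 763 nt transcript of a type not annotated in the release used, with 61.8%, against 1.79% in replicate 2.

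**Figure D5:**
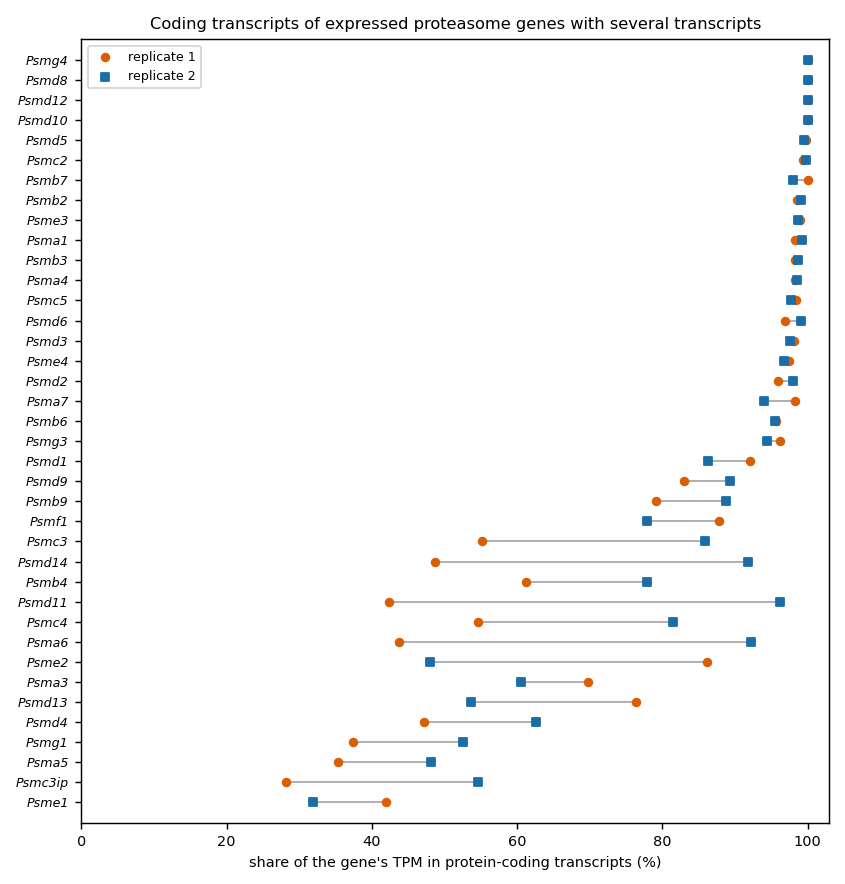
Share of a gene's TPM, in percent, held by its protein-coding transcripts in replicate 1 (circles) and replicate 2 (squares), for the 38 expressed proteasome genes with several transcripts. The upper 20 genes hold 90% or more in both libraries, and Psme1 is the lowest by the mean of the libraries.

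Among 41 other genes of the pathway that matched a symbol, of 44 listed, 37 reached 1 TPM in both libraries. These were 12 of 12 ubiquitin receptors and associated factors, 5 of 5 assembly, import and stress factors, 9 of 9 genes of ubiquitin supply and of the segregase VCP, 4 of 5 regulators of proteasome gene transcription and the 7 of 10 interferon-related genes given above. Of the genes that encode ubiquitin, Ubb had 1384 and 1541 TPM in replicates 1 and 2. Rps27a, which encodes ubiquitin fused to a ribosomal protein, had 333 and 959 TPM and was higher in replicate 2.

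Uba1, the main enzyme that activates ubiquitin, had 539.8 and 235 TPM in replicates 1 and 2. Rad23b (458 and 181 TPM), a shuttle protein that brings ubiquitinated proteins to Psmd2, and the receptor Adrm1 (265 and 179 TPM) were higher in replicate 1. Pomp, which drives maturation of the core, had 178 and 254 TPM, above all core and base chaperones. Nfe2l3 was the regulator below 1 TPM, with 0 and 0.04 TPM. Its relatives, named after their values were seen, had 52.2 and 31.8 TPM for Nfe2l1, which encodes the NRF1 that induces proteasome genes when the proteasome is impaired, and 37.3 and 33.1 TPM for Nfe2l2, which encodes NRF2.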

How the data were processed

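Poly(A) RNA of G1E cells was measured in 2 libraries, each with a gene and a transcript table. Per the deposited notes, the authors made each table separately from alignments to the transcriptome (assembly mm10, annotation M4). The sources used here do not give the aligner, the quantifier or the use of strand. The authors' expected counts are estimated reads per feature, not normalised. The authors' TPM values divide counts by effective length and sum to a fixed total over all features of a table, spike-in and short RNA entries included, so protein-coding genes held 84.4% in replicate 1 and 75.1% in replicate 2. The deposited signal columns hold a posterior mean of TPM and its credibility bounds. The percent column, per the file headers, is each transcript's share of its gene's TPM.

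Symbols, types and positions came from GENCODE release M21 of GRCm38, matched by identifier without version (42462 genes matched and 884 did not). Entries naming no gene held 0.0363% and 0.00942% of counts and were left out. A gene counted as expressed if both libraries gave it at least 1 TPM, and log2 values used a pseudocount of 1. Counts were rounded, scaled by TMM factors of edgeR 4.0.16 in R 4.3.3 (0.980 and 1.02, after its expression filter) and compared with 0.5 added among genes with at least 50 counts. A condition test could not be run with 1 group. The GC trend was a lowess curve with a span of 0.3. DESeq2 1.42.0 gave another set of size factors. Python 3.11.15 with statsmodels 0.14.6, scipy 1.17.1, numpy 2.4.6 and pandas 2.3.3 did the rest, and the ratio and GC steps were tested on simulated data. All genes that match the symbol rule are named, with, of the other pathway genes, the 10 of highest mean TPM and those under 1 TPM in both libraries, and the divergent neighbours; some of these other pathway genes are not reported here. The members, lists and motifs were chosen with earlier results of these data known. Alternatives covered scaling, pseudocount, thresholds, posterior means, coding transcripts only, filters, GC and each library alone.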

Additional observations from a re-analysis of the deposited data

How the results depend on the processing

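Of 119 recomputed values of 22 results, 114 were labelled unchanged, among them all for each library alone and for TPM rescaled over protein-coding genes. Differences between 2 genes had to keep their direction and their side of the bound, and counts to move by at most 1.5-fold. Other levels had to move by less than the SD between the libraries. For class differences and the core spread, each library alone passes that rule by construction, so its label carries no information. The median log2 ratio had to keep its direction and move by less than a 95% half-width from the SD over the 47 genes. That half-width treats genes as independent, although they share both libraries. With a pseudocount of 0.1 the tissue forms stood at -9.90 relative to the core in place of -7.22, since log2 values of genes at or near 0 depend on it. Likewise Psmb8 minus Psmb5 was then -10.25 in place of -7.10, Psma8 minus Psma7 -11.50 in place of -8.35 and Psmb11 minus Psmb5 -9.06 in place of -6.84, so the SDs between libraries printed with these differences do not cover the choice of pseudocount. With protein-coding transcripts only, an alternative chosen after seeing the data, Psme1 minus Psme2 was -0.19 in place of 0.62; both lie within the bound. The number of members 2-fold or more apart between the libraries in either direction was 11 of 47 (23.4%, against 25.4% of all protein-coding genes tested). It was 6 with the GC trend subtracted (12.8% against 17.6%) and 18 with TMM factors computed without the expression filter (38.3% against 28.2%), an alternative also chosen after seeing the data. The first and the second of these shares lie below the share of all genes. The last scaling moved the median log2 ratio of the members to 0.69 and that of all protein-coding genes to 0.26. The difference between them stayed at 0.43, which it had to, since a change of scaling shifts all log2 ratios by the same amount. Calls of expression ranged from 46 to 47 of 50 members over the alternatives, 46 at a threshold of 5 TPM. The spread among core subunits was 1.15 in replicate 1 alone and 0.60 in replicate 2 alone. No paired analysis was possible because the series holds 1 group. With 2 libraries per gene and no second condition, differences under the bound of 1.07 could not be told from the spread between libraries; Psmb8, Psma8 and Psmb11 rest on fewer than 50 counts per library.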

Other observations

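Proteasome genes were spread over the genome, with 10 of the 50 on chromosome 11 and 6 each on chromosomes 2 and 14. A protein-coding gene on the opposite strand starts within 1000 bases upstream of 8 members, or 16%, against 6.82% of all protein-coding genes; heads that overlap, as for Psmb9 and Tap1, are not counted. The level of 4 neighbours lay within 2-fold of the member in mean log2(TPM + 1). Psmc5 had 70.5 and 87.6 TPM in replicates 1 and 2 and Ftsj3, a gene of ribosome assembly that starts 75 bases away, 99.7 and 107 TPM. Psma2 had 115 and 217 TPM and Mrpl32, a mitochondrial ribosomal protein gene that starts 75 bases away, 86.3 and 106 TPM. Psmc2 had 62.2 and 99.4 TPM and Dnajc2, a chaperone gene that starts 32 bases away, 32.6 and 68.4 TPM. Psmb1 had 113 and 153 TPM and Tbp, the TATA-binding protein gene 137 bases away, 101.7 and 50.8 TPM.

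The other 4 neighbours were lower than the member by more than 2-fold. Psma7 had 368 and 297 TPM, while Ss18l1, a chromatin gene that starts 76 bases away, had 3.23 and 2.13 TPM. Psme2 had 143 and 233 TPM and Rnf31, a ubiquitin ligase gene 595 bases away, 44.6 and 23.6 TPM. Psmg2 had 19.9 and 40.4 TPM and Cep76, a centrosome gene 263 bases away, 11.6 and 12.7 TPM. Psmd10 had 12.3 and 21.2 TPM and Atg4a, an autophagy gene 179 bases away, 3.49 and 5.56 TPM.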
